A study of Mus musculus with 8 samples.

Results

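The 10 genes described here, *Pax3*, *Pax7*, *Dbx1*, *Lhx2*, *Lhx9*, *Tfap2a*, *Tfap2b*, *Tfap2d*, *Zic1* and *Meis2*, encode transcription factors of the alar plate and lateral midbrain and are 10 of the 19938 genes that the arrays of mouse embryonic tissue measured under a single gene symbol. They were chosen by their measured values on these arrays, taken here to be the differences between the mdDA and the lateral domain, so their levels in the dissected tissue are given as a description with no test. Each gene had 1 probe set, so no choice between probe sets was needed. All values are log2 levels after RMA (robust multi-array average, a background-corrected, quantile-normalized summary of the probes of a gene), on which a difference of 1 is a doubling of signal, and levels of different genes are not set against each other because each probe set has its own brightness.

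RNA of 4 groups was hybridized to 2 arrays each. The sorted groups were GFP+ mesodiencephalic dopaminergic (mdDA) neurons from *Pitx3*GFP/+ embryos (C57BL/6 x 129/Ola mixed strain), collected by FACS at E14.5 and at E13.5, so that cells were taken by GFP from the *Pitx3* locus. The dissected groups, the mdDA and the lateral domain, came from *BAT-gal* embryos at E12.5 (B6D2F1 mixed strain), which carry a b-GAL transgene driven by multimerized LEF1/TCF sites on a minimal promoter as a reporter of WNT/b-catenin signaling. The mdDA domain was b-GAL+ and PITX3+, the lateral domain lay at the boundary of alar and basal plate and was negative for both proteins, and each was cut by laser from stained, fixed sections and pooled from 5 embryos. The arrays of a group are technical replicates of RNA, so errors and p-values measure technical spread and not the spread between embryos, and all numbers after ± are SDs of 2 arrays.

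The midbrain neural tube is divided into a dorsal alar plate, which gives rise to the tectum, and a ventral basal plate with the floor plate at its midline, from which mdDA neurons arise. Sonic hedgehog from the floor plate and BMP and WNT signals from the roof plate place transcription factors in bands along this axis, and many of these factors keep a progenitor or neuron type apart by repressing those of its neighbors. The genes described here belong to the PAX, DBX, LIM homeobox, AP-2, ZIC and TALE homeobox families.

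The dissection was made with a reporter of LEF1/TCF activity, and the bases before 3 of the genes are therefore shown with the short motif CTTTG, the core of LEF1/TCF sites, in capitals on either strand (CTTTG or CAAAG). *Dbx1* is shown as the gene with the most matches, *Lhx9* as the gene with the clearest difference between sorted stages, and *Tfap2d* as the AP-2 gene with a match. Of the 10 genes 9 had an entry in the RefSeq promoter table of build GRCm38.p6, and *Pax3* is the other. Each line gives 250 bases before the listed start, 5′ to 3′ on the strand of the gene: *Dbx1* lies on the minus strand (chr7:49636836-49637085), *Lhx9* on the minus strand (chr1:138842445-138842694, before a start inside the span of the gene) and *Tfap2d* on the plus strand (chr1:19102772-19103021).
Dbx1: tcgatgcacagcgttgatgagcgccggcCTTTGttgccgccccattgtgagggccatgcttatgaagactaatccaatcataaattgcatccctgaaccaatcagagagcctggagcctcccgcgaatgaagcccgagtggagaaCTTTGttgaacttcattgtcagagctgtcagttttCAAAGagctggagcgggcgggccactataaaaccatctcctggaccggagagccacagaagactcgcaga
Lhx9: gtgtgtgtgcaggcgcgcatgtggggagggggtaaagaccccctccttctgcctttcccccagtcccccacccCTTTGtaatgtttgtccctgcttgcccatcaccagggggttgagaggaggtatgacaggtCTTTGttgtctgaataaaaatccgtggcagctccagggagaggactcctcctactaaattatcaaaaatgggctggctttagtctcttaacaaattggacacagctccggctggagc
Tfap2d: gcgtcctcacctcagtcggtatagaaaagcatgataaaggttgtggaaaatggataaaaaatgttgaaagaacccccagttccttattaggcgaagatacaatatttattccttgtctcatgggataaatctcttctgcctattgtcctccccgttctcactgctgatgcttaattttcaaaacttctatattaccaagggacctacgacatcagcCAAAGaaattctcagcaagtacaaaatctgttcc
For a gene with several listed starts, the window at the start of the gene was taken where there was one and otherwise the window listed first. In these windows *Dbx1* held 3 matches, *Lhx9* 2, *Meis2* 2 and *Tfap2d* 1, and those of the other 5 genes held none. Over every window listed for the 9 genes, 6 of 13 held a match, among them the second window of *Lhx2* and another of *Tfap2d*, beside 48.6% of the 32851 windows of the same length in the table. A match of 5 bases is a description and not a binding site. The GC content of the 9 windows taken lay between 39.6% and 72.8%, on both sides of the median of 52.4% over all windows. *Tfap2d* and *Tfap2b* are neighbors on chromosome 1, with only a pseudogene between them in RefSeq.

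Transcripts of 9 of the 10 genes were lower in the mdDA than in the lateral domain by 5.48-fold to 48.0-fold, and *Zic1* differed by 1.10-fold. In the sorted mdDA neurons the same 9 genes were below both lateral arrays on all 4 arrays, and 9 of the 10 means were lower at E14.5 than at E13.5, a stage difference that did not pass the test across all probe sets for any of them. *Lhx2* was the gene whose sorted levels lay farthest above the mdDA domain, and *Meis2* was the gene whose sorted levels lay below it. Sorted neurons and dissected tissue differ in stage, strain and isolation, which cannot be told apart.

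**Figure D1:**
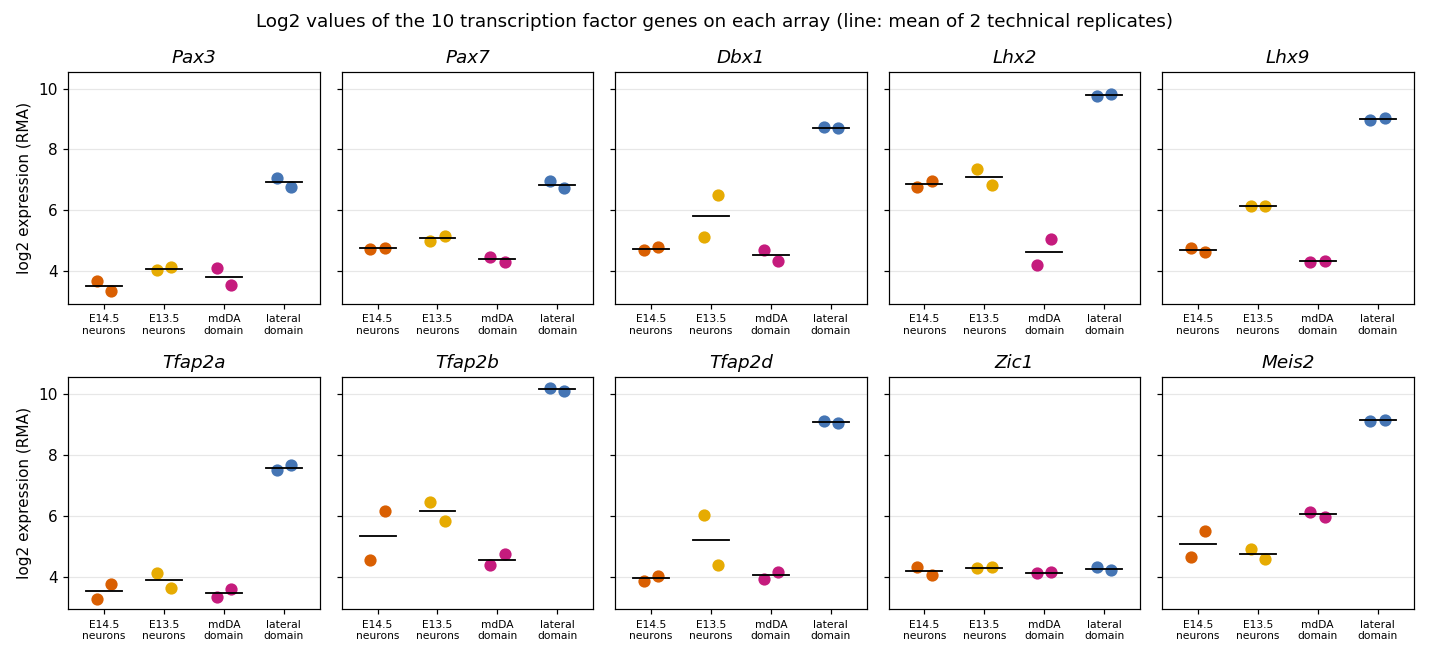
Log2 level (y axis, RMA) of each of the 10 genes on the 2 arrays of E14.5 neurons, E13.5 neurons, mdDA domain and lateral domain (x axis), with points for arrays and a line for the mean of the 2. The lateral domain is highest for 9 genes, with means between 6.85 and 10.14, and *Zic1* lies between 4.06 and 4.31 on all 8 arrays.

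*Pax3* and *Pax7* encode paired-box factors that mark dorsal neural tube progenitors. *Pax3* had log2 levels of 3.68 and 3.36 in E14.5 neurons, 4.05 and 4.13 in E13.5 neurons, 4.10 and 3.56 in the mdDA domain, against 7.07 and 6.77 in the lateral domain. The 3 lower groups were all below the lateral domain, and the mdDA arrays overlapped both sorted groups, so these neighbors did not differ beyond their spread. *Pax3* was 8.50-fold lower in the mdDA than in the lateral domain (log2 difference -3.09, standard error 0.16).
*Pax7* had 4.75 and 4.78 in E14.5 neurons, 5.0 and 5.16 in E13.5 neurons, 4.48 and 4.30 in the mdDA domain, against 6.96 and 6.73 in the lateral domain. No groups overlapped, and the order was mdDA domain, E14.5 neurons, E13.5 neurons and lateral domain from low to high. *Pax7* was 5.48-fold lower in the mdDA than in the lateral domain (log2 difference -2.45, standard error 0.15), the smallest difference among the 9 genes.

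*Dbx1* encodes a homeodomain factor of progenitors at intermediate dorsoventral levels of the neural tube. Its log2 levels were 4.71 and 4.79 in E14.5 neurons, 5.12 and 6.52 in E13.5 neurons, 4.71 and 4.34 in the mdDA domain, against 8.73 and 8.70 in the lateral domain. The E13.5 arrays were 1.40 apart, a gap that 1.94% of all probe sets reached in that group, and the lower of them lay nearer to the E14.5 pair than to its duplicate. E14.5 neurons (4.75 ± 0.054) and the mdDA domain (4.52 ± 0.26) differed by less than the mdDA arrays did from each other. *Dbx1* was 18.3-fold lower in the mdDA than in the lateral domain.

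*Lhx2* and *Lhx9* encode closely related LIM homeodomain factors. *Lhx2* is required for eye and forebrain development and *Lhx9* for the gonad, and both mark dorsal interneurons of the spinal cord. *Lhx2* had log2 levels of 6.76 and 6.97 in E14.5 neurons, 7.37 and 6.83 in E13.5 neurons, 4.21 and 5.05 in the mdDA domain, against 9.75 and 9.84 in the lateral domain. The sorted groups overlapped with each other and with neither dissected group. On the log2 scale the E14.5 mean stood 43.2% and the E13.5 mean 47.7% of the way up between the mdDA and lateral means, the largest such shares of the 9 genes. *Lhx2* was 35.9-fold lower in the mdDA than in the lateral domain, with a standard error of 0.23 on the log2 scale that was the widest of the 10 genes, since the mdDA arrays were 0.84 apart.
*Lhx9* had 4.78 and 4.63 in E14.5 neurons, 6.13 and 6.16 in E13.5 neurons, 4.31 and 4.35 in the mdDA domain, against 8.97 and 9.02 in the lateral domain. The groups did not overlap, the duplicates were at most 0.15 apart, and the E13.5 mean stood 38.9% of the way up between the domains against 8.07% for the E14.5 mean. *Lhx9* was 25.3-fold lower in the mdDA than in the lateral domain.

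*Tfap2a*, *Tfap2b* and *Tfap2d* encode AP-2 factors. The AP-2 alpha and beta proteins are known from neural crest and surface ectoderm, and mice without *Tfap2d* lose part of the posterior dorsal midbrain. *Tfap2b* had log2 levels of 4.54 and 6.15 in E14.5 neurons, 6.46 and 5.82 in E13.5 neurons, 4.37 and 4.75 in the mdDA domain, against 10.20 and 10.08 in the lateral domain. It was 48.0-fold lower in the mdDA than in the lateral domain, the largest difference of the 10 genes (log2 difference -5.58, standard error 0.19). The E14.5 arrays were 1.61 apart, and 1.97% of probe sets had a gap as large in that group, so 1 array of E14.5 neurons lay within the range of the mdDA domain and the other within that of E13.5 neurons.
*Tfap2d* had 3.85 and 4.04 in E14.5 neurons, 6.02 and 4.39 in E13.5 neurons, 3.93 and 4.17 in the mdDA domain, against 9.11 and 9.04 in the lateral domain. Its E13.5 arrays were 1.63 apart (1.40% of probe sets had a gap as large), and the E14.5 and mdDA arrays overlapped. *Tfap2d* was 32.7-fold lower in the mdDA than in the lateral domain.
*Tfap2a* had 3.28 and 3.75 in E14.5 neurons, 4.13 and 3.63 in E13.5 neurons, 3.33 and 3.59 in the mdDA domain, against 7.49 and 7.65 in the lateral domain. The mdDA arrays lay inside the range of the E14.5 ones, the sorted groups overlapped, and the only clear step was to the lateral domain, below which the mdDA domain lay by 17.2-fold.

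*Zic1* encodes a zinc-finger factor of the dorsal neural tube and cerebellum. Its log2 levels were 4.30 and 4.06 in E14.5 neurons, 4.27 and 4.31 in E13.5 neurons, 4.11 and 4.14 in the mdDA domain, against 4.30 and 4.21 in the lateral domain. All 8 values were below the median of their array, E13.5 and lateral arrays overlapped, and the mdDA domain differed from the lateral domain by -0.13 with a standard error of 0.15. The name of the group as lateral midbrain factors is thus not borne by the values of *Zic1* on these arrays.

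*Meis2* encodes a TALE homeodomain cofactor that promotes tectal identity in the chick midbrain. It had log2 levels of 4.66 and 5.51 in E14.5 neurons, 4.89 and 4.59 in E13.5 neurons, 6.13 and 5.95 in the mdDA domain, against 9.12 and 9.15 in the lateral domain. The sorted groups overlapped and both were below the mdDA domain, an order seen in no other of the 10 genes. *Meis2* was 8.52-fold lower in the mdDA than in the lateral domain.

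Between the dissected domains, all 10 genes had both mdDA arrays below both lateral arrays, and 23.3% of all probe sets did so. The limma fit over 35556 probe sets called 9 of the 10 genes lower at a false discovery rate of 10%, where it called 1.10% of probe sets lower and 1.52% higher, and since this contrast chose the genes nothing is read from that count. With 1 array left out in turn, in fits without the replicate block, the differences of the 9 genes lay between -5.77 for *Tfap2b* and -2.34 for *Pax7*. The differences nearest to 0 were -0.13 for *Zic1* and -2.45 for *Pax7*, and the median difference was -4.15, against -0.013 over all probe sets. Because bulk RNA was measured, fewer cells with a transcript and less of the transcript per cell cannot be told apart here or in the comparisons that follow. The mdDA means of 8 genes lay below the median of all probe sets on both mdDA arrays (4.60 and 4.57). That of *Meis2* (6.04) lay above, and that of *Lhx2* (4.63) only just, with 1 of its arrays below at 4.21 and the other at 5.05. Lateral means were above the medians of the lateral arrays (both 4.60) for 9 genes, all but *Zic1*.

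**Figure D2:**
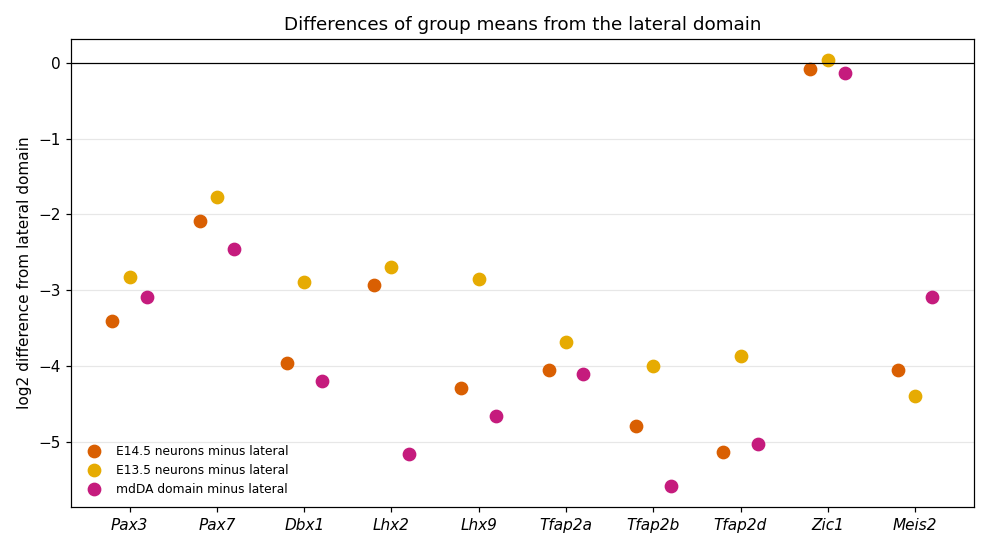
Log2 difference of each group mean from the lateral domain (y axis) for the 10 genes (x axis), with points for E14.5 neurons, E13.5 neurons and mdDA domain and a line at no difference. Sorted neurons also differ from the lateral domain in stage, strain and isolation. *Meis2* is lowest in the sorted neurons (-4.05 at E14.5 and -4.39 at E13.5, against -3.09 in the mdDA domain), *Lhx2* is lowest in the mdDA domain (-5.17, against -2.93 and -2.70 in sorted neurons), and *Zic1* lies near 0 in all 3.

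Set beside the lateral domain, sorted neurons at E14.5 had differences between -5.14 for *Tfap2d* and -2.08 for *Pax7* in the 9 genes, and those at E13.5 between -4.39 for *Meis2* and -1.77 for *Pax7*. All 4 sorted arrays were below both lateral arrays for these 9 genes, as were 26.2% of all probe sets, and *Zic1* overlapped. The median of all probe sets was 4.39 on each sorted array and 4.60 on each lateral array, an offset that these differences include. The comparison and that of the dissected domains share the lateral arrays. Stage, strain and isolation all differ between sorted neurons and the lateral domain and cannot be told apart. E14.5 means were nearer to the mdDA mean than to the lateral mean for all 10 genes and E13.5 means for 9, the other being *Zic1*. Nothing is read from these counts. The choice of the genes used the gap between those means, and the share over all probe sets was not computed. For *Zic1* that gap (-0.13) was no larger than its standard error (0.15).

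Set beside the mdDA domain, which the choice of the genes also used, the sorted neurons had a higher mean for 8 genes and a lower one for *Meis2* and, by -0.026, for *Pax3*. Stage, strain and isolation all differ between these groups and cannot be told apart. *Lhx2* was 5.09-fold higher in the mean of the sorted groups than in the mdDA domain (log2 difference 2.35), *Tfap2b* differed by 1.18 and *Lhx9* by 1.09, the last a 2.14-fold difference. *Dbx1* differed by 0.76, *Pax7* by 0.53, *Tfap2d* by 0.53, *Tfap2a* by 0.24 and *Zic1* by 0.11. *Meis2* was 2.19-fold lower in the sorted neurons (log2 difference -1.13). All 4 sorted arrays were above both mdDA arrays for *Pax7*, *Dbx1*, *Lhx2* and *Lhx9*, with *Dbx1* separated only by 4.711 against 4.707, and below both for *Meis2*. Those are 5 of the 10 genes without overlap, beside 37.3% of all probe sets in the 2 directions together.
The fit over all 8 arrays called *Pax7*, *Lhx2* and *Lhx9* higher and *Meis2* lower, beside 8.53% of probe sets higher and 9.84% lower, and again nothing is read from it. The median difference over the 10 genes was 0.53, against -0.078 over all probe sets, and that background moved to 0.025 with quantile normalization repeated and to 0.12 with arrays centred on their medians. Centring changed the calls over all probe sets to 5580 higher and 1782 lower, against 3032 and 3500 as deposited, and turned the difference of *Pax3* to 0.17. With 1 array left out in turn, *Lhx2* differed by 1.93 to 2.77 and *Meis2* by -1.34 to -0.92, while *Pax3* turned its sign (-0.30 to 0.24).

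Sorted neurons of the 2 stages were compared on arrays that are not part of the contrast taken to be behind the choice of the genes, and here the genes are tested. Which values the choice rested on is not stated, so that this test is independent of it is an assumption. *Lhx9* averaged 4.71 ± 0.10 in E14.5 neurons and 6.14 ± 0.018 in E13.5 neurons (n = 2 arrays each), a 2.71-fold lower level at E14.5 (log2 difference -1.44, 95% interval -1.81 to -1.07) with an adjusted p of 0.667 from limma over 35556 probe sets. No gene of the 10 passed a false discovery rate of 10% in either direction, nor did any probe set (0% higher and 0% lower), and limma gave 2156 probe sets and 2 of the 10 genes, *Lhx9* and *Pax3*, an unadjusted p below 0.05. With all 8 arrays in the fit, limma called 20 probe sets, 9 higher and 11 lower, and *Lhx9* was among the lower ones with an adjusted p of 0.0832, so that its call depended on which arrays set the error.
*Tfap2d* differed by -1.26 (95% interval -2.86 to 0.33) and *Dbx1* by -1.07 (-2.45 to 0.31), intervals that their wide E13.5 duplicates set. *Tfap2b* differed by -0.79 (-2.48 to 0.89), *Pax3* by -0.57 (-1.03 to -0.11, adjusted p = 0.765 from limma) and *Tfap2a* by -0.37 (-1.10 to 0.36). These intervals are not adjusted for the number of genes, and only those of *Lhx9* and *Pax3* leave out 0. *Pax7* differed by -0.32 (-0.69 to 0.057), *Lhx2* by -0.23 (-0.88 to 0.41) and *Zic1* by -0.11 (-0.53 to 0.31). *Meis2* was the one gene with a higher mean at E14.5, by 0.34 (-0.58 to 1.26).
Both E14.5 arrays were below both E13.5 arrays for *Pax3*, *Pax7*, *Dbx1*, *Lhx9* and *Tfap2d*, as for 18.0% of all probe sets, and for no gene of the 10 were they above. The median difference of the 10 genes was -0.47, against 0.0045 over all probe sets. Means lower at E14.5 in 9 of 10 genes are a count over genes of the same RNA, which are not independent. Leaving out 1 array in turn kept *Lhx9* between -1.51 and -1.36, while the sign turned for *Lhx2*, *Tfap2b*, *Zic1* and *Meis2* without 1 array each. *Tfap2d* differed by only -0.45 without replicate 1 of E13.5 neurons, and *Dbx1* by only -0.37 without replicate 2. Over the 40 pairs of gene and group, 3 had duplicates at least 1 apart, and all 3 were in sorted neurons.

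**Figure D3:**
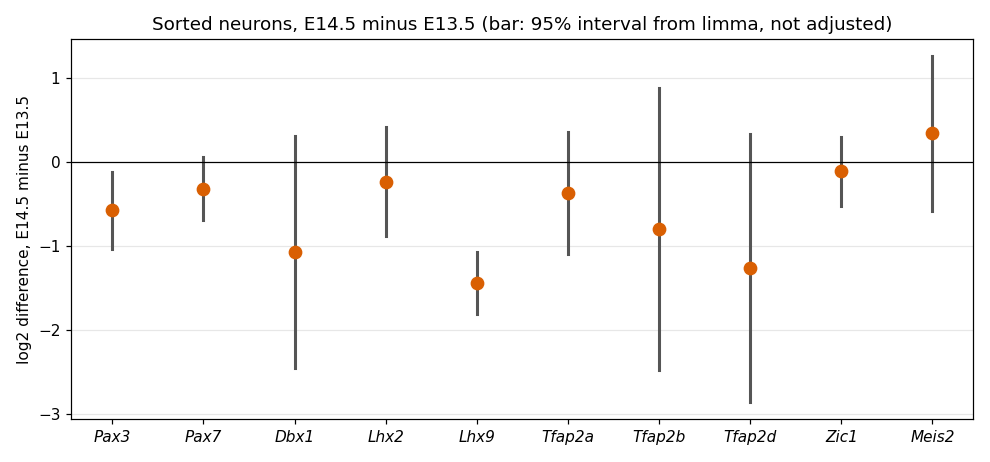
Log2 difference of sorted neurons, E14.5 minus E13.5 (y axis), for the 10 genes (x axis), with points for the difference of means (2 arrays each) and bars for limma's 95% interval, not adjusted for the number of genes. *Lhx9* (-1.44) and *Pax3* (-0.57) have intervals below 0, and the widest bars belong to *Tfap2b*, *Tfap2d* and *Dbx1*.

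Relatives of these genes were called in both directions between the domains. Of 32 other members of the 6 families 29 were measured, and in the mdDA domain against the lateral domain 3 were called higher, 2 lower and 24 not, beside 1.52% of all probe sets higher and 1.10% lower, with a median difference of -0.022 that was near that of all probe sets. The 3 higher ones were LIM homeobox genes, namely *Lmx1b*, a determinant of mdDA progenitors (log2 difference 1.53), and the motor neuron factors *Isl1* (1.52) and *Lhx4* (1.17). The 2 lower ones were *Meis1*, the closest relative of *Meis2*, at 5.70 in the mdDA domain, against 6.91 in the lateral domain (log2 difference -1.21, adjusted p = 0.0675 in limma), and *Tfap2e*, at 4.88 in the mdDA domain, against 5.93 in the lateral domain (log2 difference -1.05, adjusted p = 0.0818 in limma). None of the 7 other PAX genes, of 3 other ZIC genes or *Dbx2* was called. *Pax5* differed by -0.17 and *Pax2* by -0.012, *Zic5* by -0.18 and *Zic4* by -0.13, *Dbx2* by 0.073, *Tfap2c* by 0.079, *Pbx3* by 0.18 and *Meis3* by 0.008.
In sorted neurons against the mdDA domain 1 of the 29 was called higher, *Lmx1b* (0.61), and 5 lower: *Lhx1* (-3.02), *Isl1* (-1.87), *Lhx5* (-1.34), *Lhx4* and *Zic4* (-0.39). For these counts and those of the lists below, the shares over all probe sets in this contrast were 8.53% higher and 9.84% lower. No family member was called between E14.5 and E13.5 neurons.

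Other dorsal and alar plate genes had a mixed pattern. Of 19 listed 17 were measured, and 5 were lower and 1 higher in the mdDA than in the lateral domain, with a median of -0.072. *Gli3*, the repressor of hedgehog targets in the dorsal neural tube, was lowest (-4.01), followed by *Barhl2* (-2.87), *Otx1* (-1.98), *Otx2* (-1.62) and *Barhl1* (-1.60). *Msx1*, which is also expressed in mdDA progenitors, was higher (1.39). In sorted neurons against the mdDA domain *Gli3* (0.81) and *Otx1* (0.74) were called higher, and *Pou4f1* (-2.91), *Msx1* (-1.02) and *Msx2* lower. *Gli3* also had lower values at the later sorted stage, at 4.39 and 3.92 in E14.5 neurons and 5.59 and 5.35 in E13.5 neurons, with a difference of -1.31 that was not called (adjusted p = 0.737 from limma).
Of 12 basal and floor plate factors 10 were measured, and 4 were called higher and 1 lower in the mdDA than in the lateral domain, with a median of 0.58. *Foxa1* (3.55) and *Foxa2* (3.44), which specify the floor plate and its mdDA neurons, and *Sim1* (1.78) and *Nkx6-1* (1.12) were higher, and *Irx3*, a factor of intermediate levels, was lower (-1.69). In sorted neurons against the mdDA domain *Foxa1* was called higher (0.70) and *Sim1*, *Irx3*, *Nkx6-1* and *Nkx6-2* lower.

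Marker lists placed the samples as labelled in part. The 8 mdDA neuron markers averaged 9.30 and 9.31 in E14.5 neurons, 9.37 and 9.39 in E13.5 neurons, 8.36 and 8.39 in the mdDA domain, against 5.44 and 5.45 in the lateral domain. Of this list 7 of 8 were called higher in the mdDA than in the lateral domain. The other was *Pitx3*, at 7.39 in the mdDA domain against 6.72 in the lateral domain (log2 difference 0.67, adjusted p = 0.228 from limma). The paper lists *Pitx3* among the transcripts enriched in the mdDA domain at a false discovery rate below 10%. The 9 GABAergic markers averaged 5.24 and 5.17 in E14.5 neurons, 5.68 and 5.62 in E13.5 neurons, 4.75 and 4.59 in the mdDA domain, against 7.50 and 7.31 in the lateral domain, with 8 of 9 called lower in the mdDA than in the lateral domain and 4 of 9 higher in sorted neurons than in the mdDA domain. *Pax7*, *Dbx1*, *Lhx2*, *Lhx9*, *Tfap2a* and *Tfap2b* had their group means in the same order as this list, and the part of GABAergic cells in their values was not tested. The choice of the genes favored the mdDA domain below the lateral domain in that order. Arrays of neighboring groups overlapped for *Lhx2*, *Tfap2a* and *Tfap2b*, and *Dbx1* parted E14.5 neurons from the mdDA domain only by 4.711 against 4.707. The share of all genes in this order was not computed. Of the GABAergic list the 4 higher in sorted neurons were the GABA synthesis genes *Gad1* (0.67) and *Gad2* (2.53), the vesicular transporter gene *Slc32a1* (2.53) and *Gata3* (0.88). *Gata2* (-0.020), *Tal1* (0.26), *Tal2* (-0.17), *Sox14* (0.11) and *Helt* (0.051), which encode transcription factors, were not called. *Gad2* averaged 7.90 in E14.5 neurons, 7.75 in E13.5 neurons and 5.30 in the mdDA domain, against 8.34 in the lateral domain, so that its order of stages differed from that of the list mean. *Slc32a1* averaged 7.57 in E14.5 neurons and 7.67 in E13.5 neurons, above the lateral domain (6.44), with 5.09 in the mdDA domain.
The 7 measured markers of progenitors and dividing cells averaged 5.20 and 5.04 in E14.5 neurons, 5.01 and 5.07 in E13.5 neurons, 6.64 and 6.62 in the mdDA domain, against 7.88 and 7.90 in the lateral domain, and *Meis2* was likewise lower in sorted neurons than in the mdDA domain and highest in the lateral domain, where the part of dividing cells was not tested. Of them 5 were called lower in the mdDA than in the lateral domain and 7 lower in sorted neurons than in the mdDA domain. The 3 glutamatergic markers averaged 5.97 and 5.75 in E14.5 neurons, 6.27 and 6.12 in E13.5 neurons, 7.11 and 7.18 in the mdDA domain, against 8.13 and 8.13 in the lateral domain. One of them, *Barhl2*, was called lower in the mdDA than in the lateral domain and another, *Pou4f1*, lower in sorted neurons than in the mdDA domain. The remaining one, the vesicular glutamate transporter gene *Slc17a6*, was called in neither comparison and went the other way between the domains. It was at 8.67 in the mdDA domain against 8.05 in the lateral domain, so the list mean does not hold for each marker.
AP-2 genes are also expressed by neural crest and surface ectoderm, and *Pax3* and *Pax7* by neural crest. The 7 neural crest and mesenchyme markers averaged between 4.27 and 4.41 over the 8 arrays and the 5 surface ectoderm markers between 4.01 and 4.30, and none of either list was called in any of the 3 comparisons. In the lateral domain *Krt8* (5.88), *Sox10* (5.49) and *Col1a1* (5.29) lay above the array medians (both 4.60), and the part of such cells was not tested. Of 5 roof plate markers *Msx1* was called higher in the mdDA than in the lateral domain and 2 were lower in sorted neurons than in the mdDA domain. Of 3 endothelial markers 2 were lower in sorted neurons than in the mdDA domain and none differed between the domains, and of 3 microglial markers none was called. Both measured erythroid markers were lower in sorted neurons than in the mdDA domain, with *Hbb-y* at 3.83 in E14.5 neurons, 3.86 in E13.5 neurons, 10.68 in the mdDA domain, against 10.37 in the lateral domain, and neither was called between the domains. No gene of any marker list was called between the sorted stages.

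**Figure D4:**
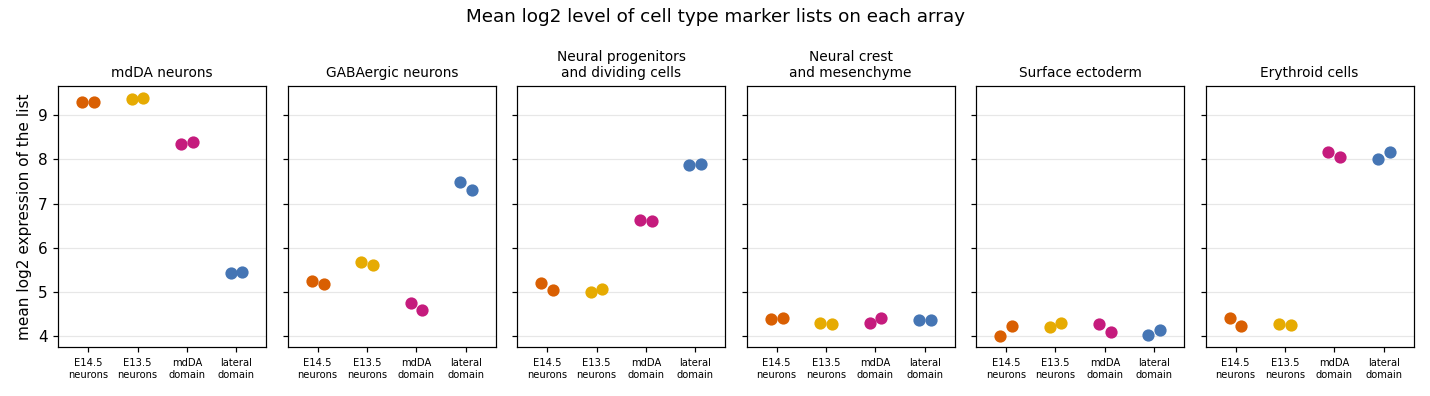
Mean log2 level (y axis) of 6 marker lists on the 2 arrays of E14.5 neurons, E13.5 neurons, mdDA domain and lateral domain (x axis), with a point for each array. GABAergic markers lie at 5.17 to 5.68 in sorted neurons, above the mdDA domain and below the lateral domain, while neural crest and surface ectoderm markers stay between 4.01 and 4.41 on all arrays.

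The profiles over the 4 groups were compared with those of all 19938 genes, each gene's mean over the groups being subtracted, by the root mean square distance in log2 units, as a description over 4 group means. *Dbx1* was nearest to *Gli3* (0.13) and *Gata3* (0.14), and its nearest neighbor among the 10 genes was *Lhx9* (0.22), which was itself nearest to *Gli3* (0.23) and *Mab21l2* (0.24) outside the group. *Tfap2d* was nearest to *Mab21l2* (0.26) and *Tal2* (0.41) and *Tfap2b* to the same pair (0.38 and 0.57), with 0.32 between the AP-2 neighbors themselves. *Pax3* was nearest to *Barhl2* (0.096) and *Sox14* (0.15), *Pax7* to *Zfpm2* (0.14) and *Ripor2* (0.17), and *Tfap2a* to *Lmo1* (0.29) and *Mab21l2* (0.30).
*Lhx2* was the gene of the 10 whose nearest profile outside the group was farthest away. It was no nearer than 0.68 to *Gata3* and *Lhx9*, with *Gli3* at 0.74, and *Meis2* was nearest to *Gm32061* (0.35) and *Mki67* (0.46), a gene of dividing cells, with *Tfap2a* at 0.61. *Zic1*, whose profile was nearly flat, was nearest to *Aldh3b3* (0.0068) and *Sart1* (0.0088), distances that any flat profile would share. The distances rest on 4 means of 2 arrays each and carry no error.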

How the data were processed

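Affymetrix Mouse Gene 1.0 ST arrays were hybridized with amplified cDNA. The authors deposited normalized log2 levels (RMA with sketch-quantile normalization, Affymetrix Expression Console 1.2), which were analysed without further scaling. The genome build of the probe annotation is not given in the sources used here. Only 2 arrays a group limit the precision. Of 35556 probe sets, 21789 had 1 symbol in the platform annotation, 1621 several and 12146 none. A gene is represented by its probe set of highest mean level, and all 10 genes were found and matched the reference by identifier.

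The domains were compared with limma 3.58.1 (R 4.3.3) on their 4 arrays with the replicate number as a block, the sorted stages on their 4 arrays without a block, and the mean of the sorted groups with the mdDA domain on all 8 arrays, each with Benjamini-Hochberg adjustment over all probe sets at 10%. The methods name a paired limma test for the domains and not its pairs, so taking the replicate number was an assumption. The genes and all 18 lists were chosen with earlier results of these data known. Named are the 10 genes, the called genes of a list (at most 4, or the 2 of highest level where fewer than 2 were called) and the 2 nearest profiles per gene. Members of short counts and *Gli3*, *Hbb-y*, *Pitx3*, *Slc17a6* and the GABAergic markers were named after their values were seen. Replicates of a group correlated at 0.966 to 0.983. Alternatives were another block, normalization, filter, prior, set of arrays or probe sets, and each array left out. Figures used Python 3.11.15 with pandas 2.3.3 and matplotlib 3.10.9.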

Additional observations from a re-analysis of the deposited data

How the results depend on the processing

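The precision rests on 2 technical replicates a group, and no batch is named in the labels. Between sorted stages limma called 20 probe sets with all 8 arrays in the fit and 0 without any one array, as in the chosen fit. Leaving out 1 array gave E14.5 minus E13.5 differences of -0.50 to 0.036 for *Lhx2*, -1.60 to 0.012 for *Tfap2b*, -0.24 to 0.013 for *Zic1* and -0.082 to 0.77 for *Meis2*, each turning its sign without 1 array. The other 6 genes kept their direction in every setting run, though 1 array left out moved *Tfap2d* between -2.08 and -0.45, *Dbx1* between -1.77 and -0.37, *Pax3* between -0.73 and -0.42, *Tfap2a* between -0.62 and -0.12 and *Pax7* between -0.40 and -0.24.

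Between the domains 931 probe sets were called, against 1434 with no replicate block, 1646 with the trend and robust priors, 2502 among probe sets with 1 symbol and 15 to 170 with 1 array left out. Sorted neurons against the mdDA domain gave 6532, 2037 without mdDA replicate 1, 2792 without mdDA replicate 2 and up to 6505 without another array. The causes were not tested. Fewer arrays or probe sets entered some fits, and between the domains some had no replicate block.

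Deviations of same-numbered arrays correlated between -0.0374 and 0.013. These values gave no sign of a pairing but cannot exclude one, and the block between the domains (-0.0147) rests on an assumed pairing. Standard errors of the fit between the domains leave out any shift that same-numbered arrays share. With the replicate block the sorted neurons against the mdDA domain gave 5625 calls and the stages 0. The filter on dim probe sets (above 4.50 on at least 2 arrays) kept 9 of the 10 genes, without *Zic1*. A second probe set could not be tried, since each gene had 1.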
